A study of Mus musculus with 33 samples.

Results

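The histone genes encode the proteins around which nuclear DNA is wrapped. They were taken from the tables of normalized counts by symbol, as every gene whose name begins with Hist1h to Hist4h, H1f, H2af or H3f and that had a normalized count of 10 or more in at least 2 libraries of a table. Of 79 symbols that match, out of 30168 symbols in all, 35 reached that count in at least 1 of the 4 tables. They comprise 24 of 65 replication-dependent genes (the Hist symbols), 10 of 13 variant genes (H1f, H2af and H3f symbols) and H3f3aos, an antisense RNA to H3f3a that matches by name and codes for no histone. The organoid table holds all 35, the tables of trichostatin A treatment, of tumors and of the Trps1 guide hold 24, 21 and 19, and 18 genes are members in all 4. In the organoid table the 3 symbols just below the rule were Hist1h4c, Hist1h2bh and Hist1h2bb, with highest counts of 13.5, 12 and 11.6 reached in 1 library each. Hist1h2ac, at 12.01 and 10.68 in its highest libraries, was just inside it. Hist4h4 stayed below the rule in every table, with a highest count of 6.79.

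Histones H2A, H2B, H3 and H4 form the nucleosome core and histone H1 binds the linker DNA between cores. Replication-dependent histone genes lie in clusters, are transcribed in S phase, and their mRNAs classically end just after a conserved stem-loop, bound by SLBP, in place of a poly(A) tail. Many variant genes, such as H2afz (H2A.Z) or H3f3b (replacement H3), have introns and polyadenylated mRNAs, are made through the cell cycle, and are placed in chromatin by their own chaperones. The variants H1f0, H1fx, H2afj and H2afx have no annotated intron. Some replication-dependent genes also yield polyadenylated transcripts that run past the stem-loop, a form described in differentiating and non-dividing cells.

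The 4 experiments were sequenced as bulk RNA, in 33 libraries. The mouse mammary epithelial line HC11 received 300 nM of trichostatin A (TSA, a histone deacetylase inhibitor) or the solvent DMSO for 24 h, with 3 libraries each, or carried 1 CRISPR guide, sgTrps1 #1 in one arm and the scrambled sgScr #1 in the other, with 2 libraries per arm. Organoids were mammary cultures of 3 genotypes, Cdh1F/F with Trps1+/+ (written Cdh1F/F;Trps1+/+ below), Cdh1F/F with Trps1F/F (Cdh1F/F;Trps1F/F) and Cdh1+/F with Trps1F/F (Cdh1+/F;Trps1F/F), all transduced with an adenovirus carrying Cre (AdCre) and kept in Matrigel for 14 or 28 days, with 2 libraries for each genotype and day. Every organoid group therefore carried Cre and at least 1 floxed Cdh1 allele. Mammary tumors came from WAP-cre;Cdh1F/F mice that were Trps1+/+ (3 tumors of 3 mice) or Trps1F/F (8 tumors of 6 mice), where Cre is driven by the whey acidic protein promoter of milk-producing cells and both groups are floxed for Cdh1. The Trps1F/F tumors carry labels of 3 subgroups, with 4, 2 and 2 tumors, and the sources used here do not say what defines a subgroup. No label says that replicate libraries came from separate cultures or animals for the cell line and organoids, so the p-values there measure the spread between libraries, which may be technical.

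Library totals lay between 14833245 and 38708003 reads, and 3 reads corresponded to 1.55 to 4.51 normalized counts. Trps1 counts were 11628 to 15949 in Trps1+/+ organoids, 700 to 1050 in Cdh1+/F;Trps1F/F organoids and 2123 to 2676 in Cdh1F/F;Trps1F/F organoids. In HC11 the sgTrps1 libraries (14786 to 15418) and sgScr libraries (14212 to 15186) had similar Trps1 mRNA counts, and a frameshift need not lower an mRNA, so the counts are no check of that label. TSA-treated cells held 1905 to 2009 Trps1 counts against 15668 to 16654 with DMSO. In tumors Trps1 counts of the 2 genotypes overlapped (954 to 6353 in Trps1F/F, 2821 to 7878 in Trps1+/+).

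Because the stem-loop decides how replication-dependent mRNAs end, its position in the annotated transcripts was read first. The 16-base stem-loop, in capitals below with 5 flanking bases on each side (GENCODE M21, GRCm38, written in the sense of the gene), is shown for members whose levels turn the results, with the variant H2afx and a non-member for comparison.
Hist1h1c: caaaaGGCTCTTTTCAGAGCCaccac
Hist1h2be: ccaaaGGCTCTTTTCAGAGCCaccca
Hist1h4i: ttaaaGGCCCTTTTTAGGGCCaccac
Hist2h4: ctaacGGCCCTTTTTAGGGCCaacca
Hist1h4a: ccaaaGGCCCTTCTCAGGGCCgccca
Hist1h4h: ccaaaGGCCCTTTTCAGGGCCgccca
H2afx: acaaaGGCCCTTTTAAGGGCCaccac
Hist1h4f: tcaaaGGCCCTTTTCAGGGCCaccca
These lie at chr13:23739507-23739532 (plus strand, Hist1h1c), chr13:23585526-23585551 (minus, Hist1h2be), chr13:22040961-22040986 (minus, Hist1h4i), chr3:96262934-96262959 (minus, Hist2h4), chr13:23760795-23760820 (minus, Hist1h4a), chr13:23531453-23531478 (plus, Hist1h4h), chr9:44335235-44335260 (plus, H2afx) and chr13:23551286-23551311 (minus, Hist1h4f). The annotated exon runs on past the stem-loop by 840 bases in Hist1h1c, 1861 in Hist1h2be, 330 in Hist1h4i, 1257 in Hist2h4 and 108 in Hist1h4a, but by 46 in Hist1h4h and 33 in Hist1h4f. Of 22 replication-dependent genes annotated more than 100 bases past a stem-loop, 16 were members in some table. Of 20 whose annotation ended within 100 bases of it, 1 was a member (Hist1h4h), and of 21 with no match in the annotated transcript, 6 were members. In 13 of those 21 the annotation ends at the stop codon, so a stem-loop after it could not be found. No match there does not mean that the gene lacks one. The remaining member, Hist1h2al, is annotated as a processed pseudogene and was not read for the stem-loop. Annotation that reaches further also offers more bases to count, and whether the transcript form or the counted length goes with membership cannot be told apart here. Among the variants, H2afx alone of 12 genes carried a match, and 38 of 58696 other protein-coding transcripts did. The plot of highest organoid counts by annotated end shows the split among genes.

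**Figure D1:**
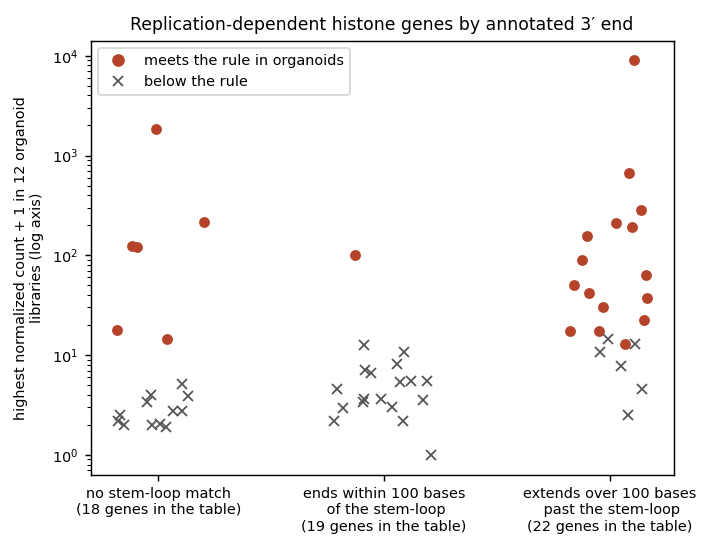
Highest normalized count plus 1 over the 12 organoid libraries (log axis) of each replication-dependent histone gene, grouped by the annotated 3′ end; circles meet the rule in organoids and crosses do not. Of the genes annotated to end within 100 bases of the stem-loop, the single circle is Hist1h4h. The genes with no match include some whose annotation ends at the stop codon.

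Promoters were taken from RefSeq (GRCm38.p6, 250 bases before to 50 after each start) and matched 28 of the 35 members, 19 of them replication-dependent and 9 variant. The 250 bases before the start are printed for a linker histone, an H2B gene and a variant that recur in the comparisons, with matches in capitals to the TATA box (TATAAA), the box named after its letters CCAAT, the octamer of H2B promoters (ATTTGCAT) and the H1 box (AAACACA). Both strands were read, so a CCAAT match on the other strand appears as ATTGG.
Hist1h1c: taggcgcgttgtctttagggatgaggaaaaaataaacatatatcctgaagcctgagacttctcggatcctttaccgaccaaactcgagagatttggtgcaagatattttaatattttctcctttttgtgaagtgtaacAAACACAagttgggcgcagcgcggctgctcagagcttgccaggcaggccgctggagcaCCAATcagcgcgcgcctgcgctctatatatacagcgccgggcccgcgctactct
Hist1h2be: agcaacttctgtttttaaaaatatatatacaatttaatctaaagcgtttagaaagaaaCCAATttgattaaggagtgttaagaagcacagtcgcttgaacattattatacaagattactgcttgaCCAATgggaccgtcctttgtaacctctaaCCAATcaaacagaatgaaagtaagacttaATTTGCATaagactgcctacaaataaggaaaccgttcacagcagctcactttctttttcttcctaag
H2afz: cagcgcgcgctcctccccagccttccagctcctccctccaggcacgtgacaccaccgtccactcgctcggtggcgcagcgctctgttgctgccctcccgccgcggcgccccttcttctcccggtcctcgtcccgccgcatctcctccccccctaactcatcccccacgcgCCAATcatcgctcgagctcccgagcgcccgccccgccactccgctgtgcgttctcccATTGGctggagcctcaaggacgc
They are chr13:23738557-23738806 (plus), chr13:23585971-23586220 (minus, 1 of 2 annotated Hist1h2be starts) and chr3:137864237-137864486 (plus). Over the 300-base windows and both strands, the octamer was in 3 of 3 H2B members, 5 of 19 replication-dependent members and 1.74% of all 32851 promoters. The H1 box was in 4 of 5 H1 members and 7.18% of all promoters. The TATA box stood in 12 of 19 replication-dependent and 1 of 9 variant members (13.6% of all promoters), and the CCAAT box in 15 of 19 and 6 of 9 (37.4%). AGATAA, a form of the GATA motif, was in 2 of 19 replication-dependent and 0 of 9 variant members, against 11.2% of all promoters. A match is a run of letters and no measured binding.

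Per kilobase of annotated exon, the organoid libraries held on average 11785 counts of H3f3b, 4551 of Hist1h1c, 3935 of H1f0 and 1979 of H3f3a. Next came 895 of H2afz, 853 of Hist1h2bc, 556 of H2afj and 532 of Hist1h4i. The 60 replication-dependent symbols of that table, members or not, together took 0.0357% to 0.0603% of each organoid library. The 13 variant symbols took 0.216% to 0.301%. Hist1h1c alone, a linker histone gene, made up 67.4% to 80.2% of the replication-dependent counts there. Tumor libraries held 0.00198% to 0.00712% in all replication-dependent symbols and HC11 libraries with DMSO 0.00111% to 0.00121%. These tables were normalized separately and hold other symbols, so no change is read between them.

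The first comparison was TSA against DMSO in HC11 cells. All 12 replication-dependent members that were tested rose, by 1.12 to 5.23 on the log2 scale (median 2.81), and all 10 variants changed, 6 up and 4 down. Linker histone genes, H2B genes and H4 genes rose together, while the macroH2A genes H2afy and H2afy2, H2afz and H2afx fell. Over all 12883 genes 43.4% were called higher and 42% lower at a limma adjusted p under 0.05, with a median change of 0.01, so a call by itself is common in this comparison. Of the 12 replication-dependent genes, 7 had a count of 10 in every TSA library but not in every DMSO library, which favours a rise. Among these, Hist1h1b, Hist1h1e, Hist1h4a and Hist1h4j stayed under 10 in every DMSO library and so were bound to be higher. The other 5 (Hist1h1c, Hist1h2bc, Hist1h4i, Hist2h2be and Hist3h2a) had such counts in all 6 libraries, and all 5 rose, with a median of 2.59.

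Hist1h1c, the most abundant linker histone gene of the clusters, had 78.8, 71.6 and 78.2 normalized counts in the DMSO libraries and 1028, 995 and 1086 with TSA. The groups lay far apart, with a log2 fold change of 3.75 (SE 0.0801, adjusted p = 1.56e-12). Hist1h2be, an H2B gene, had 10.2, 5.595 and 4.17 against 287, 268 and 260, the furthest rise of any member at 5.23 (SE 0.253, adjusted p = 1.40e-09). Its exons overlap those of the neighbours Hist1h1e and Gm11398 on the same strand, by 816 bases summed over both. Reads there cannot be assigned to 1 gene with certainty. Hist1h1e itself had 4.09, 8.95 and 9.38 against 73.1, 58.1 and 64.2 (3.03, SE 0.289, adjusted p = 8.27e-07). Hist1h1a, another H1 gene, rose from 9.21, 17.9 and 12.5 to 121, 134 and 141 (3.27, SE 0.225, adjusted p = 3.76e-08). The H1 genes Hist1h1b and Hist1h1d were lowest, at 2.09 to 6.71 and 2.24 to 10.4 with DMSO and at 15.8 to 18.9 and 11.3 to 19.6 with TSA. No DMSO library reached a TSA library in any of these genes. Under quantile normalization Hist1h1d (-0.19, adjusted p = 0.703) and the H4 gene Hist1h4j (-0.10, adjusted p = 0.831) turned direction and Hist1h1b (0.43, adjusted p = 0.23) was no longer called.

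The H2B genes Hist1h2bc and Hist2h2be had 20.46, 20.1 and 13.6, and 30.7, 17.9 and 20.9, counts with DMSO. With TSA they had 108, 112 and 117, and 110, 110 and 113. Both rose, by 2.59 (SE 0.191, adjusted p = 7.35e-08) and 2.25 (SE 0.199, adjusted p = 4.17e-07). The H4 gene Hist1h4i went from 14.3, 11.2 and 16.7 to 139, 113 and 115 (3.04, SE 0.193, adjusted p = 1.80e-08). Hist1h4a, also an H4 gene, was at 0, 0 and 1.04 with DMSO, which is a single read, and at 15.3, 14.3 and 13.8 with TSA. Its ratio of reads was 40.9, with a 95% interval of 6.99 to 1649 that covers counting error only. The H2A gene Hist3h2a rose least, from 23.5, 28.0 and 28.1 to 64.4, 58.8 and 53.4 (1.12, SE 0.177, adjusted p = 7.86e-05), and its exons overlap Trim17 on the same strand. Hist2h4, an H4 gene with 1.02, 4.48 and 3.13 against 14.2, 12.8 and 8.89 counts, was a member but fell below the filter of the test. Counts summed over all replication-dependent symbols, members or not, were 226 to 248 with DMSO and 2012 to 2105 with TSA. The share of Hist1h1c in that sum was 31.5% to 32.1% and 49.2% to 51.6%.

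Among the variants, H1f0, the linker histone of differentiated and resting cells and a classical target of deacetylase inhibitors, had 6297, 5895 and 5448 counts with DMSO and 24679, 24858 and 25797 with TSA (2.10, SE 0.0507, adjusted p = 4.00e-12). H3f3b, 1 of 2 genes for replacement histone H3, went from 30563, 32824 and 33781 to 79583, 79065 and 82408 (1.31, SE 0.0515, adjusted p = 2.12e-10). Its partner H3f3a was at 2172, 2344 and 2251 and at 2396, 2397 and 2431. That difference of 0.09 (adjusted p = 0.0413) was not called without 5 of the 6 libraries in turn (adjusted p 0.0757 to 0.111). The macroH2A genes went the other way: H2afy2 fell from 375, 395 and 423 to 28.4, 27.9 and 30.6 (-3.73, SE 0.116, adjusted p = 2.98e-11). Exons of H2afy2 overlap Aifm2 over 233 bases on the opposite strand, and reads there cannot be told apart if strand was ignored in counting. H2afy fell from 3115, 3047 and 3117 to 1486, 1561 and 1539 (-1.02, SE 0.0376, adjusted p = 1.27e-10). MacroH2A is the H2A variant with a large extra domain that marks silent chromatin. The H2A.Z genes parted, since H2afv rose from 825, 895 and 864 to 1621, 1670 and 1694 (0.95, adjusted p = 1.50e-09) while H2afz fell from 4002, 4522 and 4836 to 3202, 3317 and 3264 (-0.45, adjusted p = 1.56e-05). H2afj rose by 0.86 (adjusted p = 0.000133), H2afx, the variant phosphorylated at DNA breaks, fell by 0.25 (adjusted p = 0.00576), and H1fx, a linker variant at 1.12 to 4.17 with DMSO and 27.7 to 51.3 with TSA, differed by 3.37 (adjusted p = 4.86e-06). The antisense RNA H3f3aos rose by 1.12 (adjusted p = 0.00263). No variant's groups overlapped, as the plot by library shows, in a comparison where 85.4% of all genes were called. The share of all genes without overlap is not given. H1fx had counts of 10 in the TSA libraries only and so was bound to be higher and apart.

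**Figure D2:**
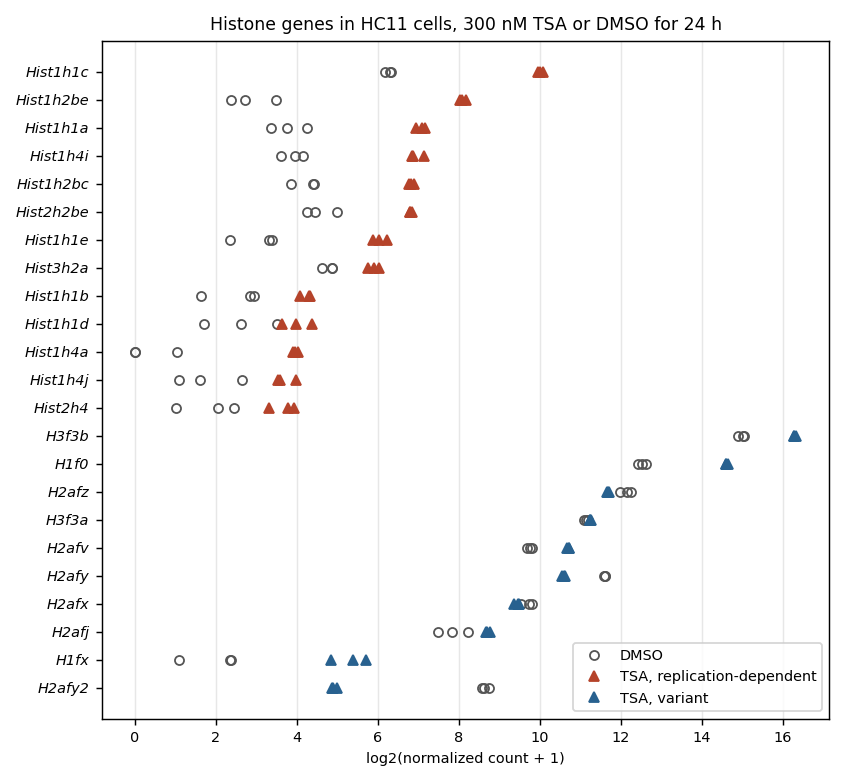
Normalized counts, as log2(count + 1), of each histone gene in the 3 DMSO and 3 TSA libraries of HC11 cells, replication-dependent and variant genes in separate colours. Hist1h2be (4.17 to 10.2 with DMSO, 260 to 287 with TSA) and H2afy2 (375 to 423 and 27.9 to 30.6) moved furthest in opposite directions.

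S phase genes, which code for the DNA replication machinery, were read beside the histones. Of 38 S phase genes tested, 4 rose and 33 fell (median -1.04), among them the helicase subunits Mcm3 (-2.26) and Mcm6 (-2.08) and the ribonucleotide reductase gene Rrm2 (-2.13). Their summed count was 124056 to 128944 with DMSO and 55417 to 58056 with TSA. Of 15 genes of histone mRNA transcription and processing 4 rose and 9 fell (median -0.20), including the cleavage factors Cstf2 (-1.60), Cpsf2 (-0.96) and Cpsf3 (-0.81) and the Cajal body protein Coil (-0.92). Of 25 histone chaperones 5 rose and 20 fell (median -0.43), including Hjurp (-1.68), Npm1 (-1.42), Nasp (-1.29) and Nap1l1 (-1.20). Markers of basal epithelium, summed over their list, were 110102 to 126268 with DMSO and 53634 to 55785 with TSA, and the part of the S phase or basal change in the histone result was not tested.

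The guide comparison asks how HC11 cells carrying sgTrps1 differ from those carrying sgScr. Of 9 replication-dependent members tested, 5 rose and 1 fell (median 0.35), and of 9 variants 4 rose and 1 fell (median 0.13). Both H2A.Z genes, H3f3a, Hist1h1c and Hist1h2bc rose, while H1f0 and the H2B gene Hist2h2be fell. Over 12430 genes 34.8% were called higher and 32.6% lower, so 11 of 18 is close to what this comparison gives over all genes.

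H2afz had 930 and 828 counts with sgScr and 1650 and 1677 with sgTrps1 (0.92, SE 0.067, adjusted p = 2.94e-08), and H2afv had 468 and 435 against 852 and 825 (0.89, SE 0.0711, adjusted p = 7.67e-08). H3f3a went from 5414 and 5154 to 7903 and 8438 (0.63, SE 0.066, adjusted p = 1.24e-06), whereas H3f3b, at 68877 and 62802 against 70397 and 73604, was not called (0.13, adjusted p = 0.424). H1f0 fell from 6151 and 5520 to 2304 and 2322 (-1.33, SE 0.0645, adjusted p = 4.67e-10). The 2 groups did not overlap in H2afz, H2afv, H3f3a or H1f0. With 2 libraries per group this adds little to the calls, and no share over all genes is given beside it. H3f3aos, antisense to H3f3a and not separable from it if strand was ignored in counting, was lower with sgTrps1 (47.8 and 57.9 against 29.5 and 25.9, adjusted p = 0.00102). H2afy (2873 and 2788 against 2878 and 2791), H2afy2 (0.03, adjusted p = 0.707) and H2afj (0.04, adjusted p = 0.712) were not called. H2afx, at 172 and 171 against 203 and 204, was called (0.25, adjusted p = 0.0419) but not without any 1 of the 4 libraries (adjusted p 0.0617 to 0.226).

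Hist1h1c rose from 359 and 306 to 624 and 609 (0.89, SE 0.0862, adjusted p = 5.23e-07) and Hist1h2bc from 51.8 and 50.5 to 127.6 and 104 (1.16, SE 0.152, adjusted p = 1.13e-05). Hist2h2be, from the smaller cluster on chromosome 3, fell from 165 and 157 to 84.4 and 83.8 (-0.93, SE 0.121, adjusted p = 1e-05). None of these groups overlapped, with the same limit of 2 libraries per group. Hist1h4i had 17.7 and 14.7 against 34.8 and 37.2 (1.11, SE 0.233, adjusted p = 0.00074). The calls of Hist1h2be (0.81, adjusted p = 0.0263) and Hist2h2bb (0.35, adjusted p = 0.0218) were lost without either sgTrps1 library, that of Hist1h2be also without sgScr library 1, and 8 of the 11 calls held without any 1 library. Hist3h2a (83.8 and 61.5 against 75.9 and 87.4), Hist2h4 (39.3 and 62.5 against 67.0 and 55.3) and Hist1h1e (24.2 and 21.1 against 21.6 and 19.1) had overlapping groups and were not called.

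S phase genes rose here: 31 of 38 were higher and 2 lower (median 0.51), with Cdk2 (1.49), Cdc45 (1.39), Rrm2 (1.18) and Prim1 (1.16) named by the smallest p. Their sum was 42554 to 45176 with sgScr and 65887 to 67360 with sgTrps1. Slbp, the stem-loop binding protein, rose by 0.91 and Casp8ap2 by 0.60, among 5 processing genes higher and 2 lower of 14. Of 25 chaperones 13 rose and 4 fell (median 0.23), among them Chaf1b (1.56), Hat1 (0.90), Asf1a (0.88) and Nasp (0.81). Summed basal markers were 41609 to 48488 with sgScr and 101781 to 103220 with sgTrps1. The part of either in the histone changes was not tested.

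In organoids, each genotype floxed for Trps1 was set against Cdh1F/F;Trps1+/+, first at day 28. Cdh1+/F;Trps1F/F organoids had higher replication-dependent histone counts than Cdh1F/F;Trps1+/+ organoids: 13 of 24 members rose and 0 fell (median 0.78). Of 10 variants 1 rose and 4 fell (median -0.34). Over 15705 genes 28.7% were called higher and 24.9% lower. The higher share of all calls was 53.6%, and 41.7% under quantile normalization. Of the 24 replication-dependent members 18 had counts of 10 in every library of both groups, and 9 of those 18 rose. Another 5 (Hist1h2ac, Hist1h3e, Hist1h3f, Hist1h4a and Hist1h4d) had such counts in every Cdh1+/F;Trps1F/F library but not in every Cdh1F/F;Trps1+/+ library. All of these but Hist1h4d reached 10 in no other organoid group. They met the rule only through the group tested as higher, and they enter the family counts that follow. By family 5 of 7 H4 genes, 3 of 4 H3 genes, 3 of 5 H2B genes, 2 of 5 H1 genes and 0 of 3 H2A genes rose. In bulk libraries, more cells of a type and more RNA per cell cannot be told apart.

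The H4 gene Hist1h4h, the member annotated to end near its stem-loop, had 27.7 and 27.3 counts in Cdh1F/F;Trps1+/+, 99.1 and 97.0 in Cdh1+/F;Trps1F/F and 14.5 and 6.31 in Cdh1F/F;Trps1F/F organoids at day 28. The 3 genotypes did not overlap, and the Cdh1+/F;Trps1F/F libraries stood highest, by 1.80 over Cdh1F/F;Trps1+/+ (SE 0.346, adjusted p = 0.000762). Hist2h4 had 52.7 and 43.1, then 108 and 156, then 21.7 and 15.1 counts in the same order (1.43, SE 0.292, adjusted p = 0.00118). Hist1h4i had 329 and 366, then 661 and 665, then 221 and 285 (0.93, SE 0.134, adjusted p = 7.44e-05). All 3 H4 genes shared this order of the genotypes. Hist1h2bc, an H2B gene, had 818 and 947, then 1437 and 1843, then 917 and 907 counts, so that only the Cdh1+/F;Trps1F/F libraries stood apart (0.89, SE 0.114, adjusted p = 3.00e-05). Hist1h4a had 1.35 and 2.64 against 16.5 and 14.2 (2.48, SE 0.572, adjusted p = 0.00267), the first pair at or under 3 reads. Both Hist1h4a and Hist1h3f met the rule only through the Cdh1+/F;Trps1F/F libraries of day 28. That they were higher there was therefore fixed in advance, and their p-values add no support. Hist1h2be (1.19, adjusted p = 0.0153), Hist1h1d (0.68, adjusted p = 0.016) and Hist1h3f (1.98, adjusted p = 0.0238) also rose. Hist1h1c, at 6260 and 8550 against 8939 and 8963, and Hist3h2a, at 174 and 180 against 179 and 212, were not called. Hist2h2be rose by 0.53 (adjusted p = 0.0468).

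Of the variants in this comparison, H2afx, H2afz, H2afy and H3f3b fell, H2afy2 rose and 5 were not called. H2afx had 540 and 602 counts in Cdh1F/F;Trps1+/+ and 309 and 299 in Cdh1+/F;Trps1F/F organoids (-0.90, SE 0.13, adjusted p = 7.61e-05). H2afz had 1751 and 1808 against 1271 and 1052 (-0.62, SE 0.0968, adjusted p = 0.000144), H2afy 1794 and 1808 against 1374 and 1390 (-0.38, adjusted p = 0.000528) and H3f3b 36871 and 33415 against 28350 and 26125 (-0.37, adjusted p = 0.00863). H2afy2 rose from 260 and 255 to 425 and 347 (0.58, SE 0.137, adjusted p = 0.00335). None of these 5 had overlapping groups, which adds little to a call with 2 libraries per group. No share of all genes without overlap is given. The variants not called were H1f0, H1fx, H2afj, H2afv and H3f3a. Of the 18 histone calls, 9 held without any 1 library (H2afx, H2afy, H2afy2, H2afz, Hist1h2bc, Hist1h4a, Hist1h4h, Hist1h4i and Hist2h4). Among these, Hist1h4a met the rule only through the group where it was higher. The count was 11 without Cdh1F/F;Trps1+/+ library a and 10 without Cdh1+/F;Trps1F/F library b.

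**Figure D3:**
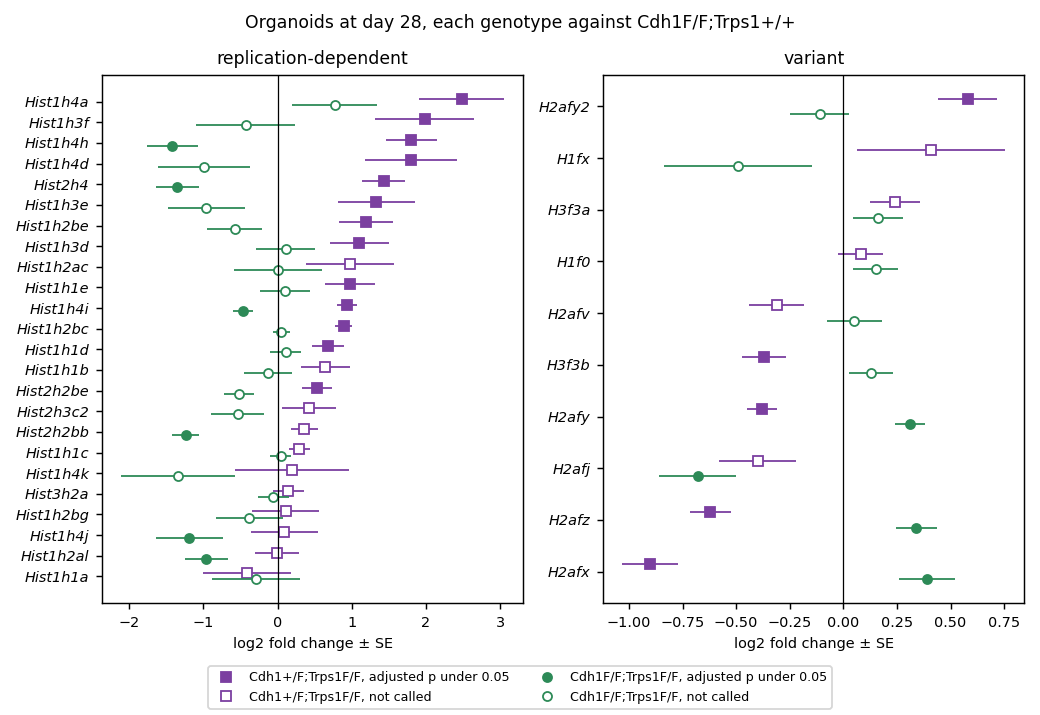
Log2 fold change with its standard error of each histone gene at day 28, for Cdh1+/F;Trps1F/F (squares) and Cdh1F/F;Trps1F/F (circles) against the same Cdh1F/F;Trps1+/+ libraries; filled symbols have a limma adjusted p under 0.05. Hist1h4h (1.80 and -1.42) and Hist2h4 (1.43 and -1.35) lie on opposite sides of 0, as do H2afx (-0.90 and 0.39) and H2afz (-0.62 and 0.34).

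Cdh1F/F;Trps1F/F organoids were set against the same Cdh1F/F;Trps1+/+ libraries at day 28. Over both classes 10 of 34 histone genes were called (29.4%), a lower share than the 43.6% of all genes. Of 24 replication-dependent members 6 fell and 0 rose (median -0.45), against 23.5% of all genes lower and 20.1% higher, so the share of members that fell is near that over all genes. Among the H4 genes 4 of 7 fell, including Hist1h4h (-1.42, SE 0.346, adjusted p = 0.00518) and Hist2h4 (-1.35, SE 0.292, adjusted p = 0.00244). Hist2h2bb, an H2B gene, had 136 and 180 counts against 65.0 and 65.6 (-1.24, SE 0.182, adjusted p = 0.000135), with no overlap. Hist1h4i (-0.47, adjusted p = 0.0131), Hist1h2al (-0.96, adjusted p = 0.0181) and Hist1h4j (-1.19, adjusted p = 0.0499) fell too, while Hist1h1c, Hist1h2bc, Hist2h2be and Hist3h2a were not called. Of the variants 3 rose and 1 fell: H2afz had 2321 and 2197 counts (0.34, adjusted p = 0.012), H2afx 770 and 728 (0.39, adjusted p = 0.0273), H2afy 2273 and 2178 (0.31, adjusted p = 0.00358), and H2afj fell from 988 and 1342 to 733 and 705 (-0.68, adjusted p = 0.00807). Of these 10 calls 3 held without any 1 library (H2afy, Hist2h2bb and Hist2h4), and the count was 6 without Cdh1F/F;Trps1+/+ library b or in a fit of the 2 groups alone.

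The 2 genotypes floxed for Trps1 can also be set against each other, and by label they share that allele but differ in Cdh1. At day 28 Cdh1 counts were 14402 to 15724 in Cdh1F/F;Trps1F/F and 8413 to 9123 in Cdh1+/F;Trps1F/F organoids. Trps1 counts were 2123 to 2401 and 700 to 1050, so the counts do not show a contrast of Cdh1 dose at equal Trps1. At day 28, 17 of 24 replication-dependent members were lower in Cdh1F/F;Trps1F/F than in Cdh1+/F;Trps1F/F organoids and 0 higher (median -1.01), where 29% of all genes were lower and 27.9% higher (49.1% of all calls were higher, and 61.9% under quantile normalization). Of 15 with counts of 10 in all 4 libraries 12 were lower. Another 8 had such counts in every Cdh1+/F;Trps1F/F library but not in every Cdh1F/F;Trps1F/F library, which favours a lower value. Among these, Hist1h2ac, Hist1h3e, Hist1h3f and Hist1h4a met the rule only through the Cdh1+/F;Trps1F/F libraries of day 28. Their being lower was fixed in advance and adds no support, in these counts or in those below. Of the variants 5 were higher and 2 lower. Hist1h4h differed by -3.22 (SE 0.346, adjusted p = 3.92e-06), Hist2h4 by -2.77 (SE 0.292, adjusted p = 3.18e-06), Hist2h2bb by -1.61 (SE 0.182, adjusted p = 6.44e-06) and Hist1h4i by -1.40 (SE 0.134, adjusted p = 1.31e-06). H2afx differed by 1.30 (SE 0.13, adjusted p = 2.06e-06), H2afz by 0.97 (SE 0.0968, adjusted p = 2.01e-06) and H2afy by 0.69 (SE 0.07, adjusted p = 2.36e-06). The 3 contrasts between genotypes at 1 day use the same libraries and are not independent of each other. Of the 24 calls 14 held without any 1 library, and under quantile normalization 13 were called, with Hist1h3d (0.06, adjusted p = 0.903), Hist2h3c2 (0.02, adjusted p = 0.974) and H1fx (0.08, adjusted p = 0.86) turning direction.

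At day 14 fewer histone genes passed the test. Between Cdh1F/F;Trps1F/F and Cdh1F/F;Trps1+/+ organoids 5 of 24 replication-dependent members were lower and 0 higher (18% and 14.7% of all genes), namely Hist1h4i (387 and 353 against 261 and 245), Hist1h4h (33.9 and 32.9 against 14.1 and 16.5), Hist1h2bc, Hist1h2be and Hist2h3c2, and H1f0 was higher (6565 and 6289 against 8824 and 8527, 0.43, adjusted p = 0.00743). None of these 6 calls held through every library left out in turn: the count was 1 without Cdh1F/F;Trps1+/+ library a or Cdh1F/F;Trps1F/F library 2 and 2 without Cdh1F/F;Trps1F/F library 1. Cdh1+/F;Trps1F/F organoids had 2 members higher, Hist2h4 (0.90, adjusted p = 0.0284) and Hist1h3e (1.57, adjusted p = 0.0306). Hist1h3e had 1.99 and 2.67 counts in Cdh1F/F;Trps1+/+, at or under 3 reads, and 9.33 and 8.43 in Cdh1+/F;Trps1F/F organoids. It met the rule only through day 28. Over all genes 19% were higher and 17.6% lower, beside this count of 2. That count was 0 without Cdh1F/F;Trps1+/+ library a or b or Cdh1+/F;Trps1F/F library b, and 5 without Cdh1+/F;Trps1F/F library a. Between the genotypes floxed for Trps1 8 replication-dependent members were lower in Cdh1F/F;Trps1F/F, with Hist1h4h (-1.58) and Hist2h4 (-1.51) among them, and 3 variants higher and 2 lower, where 21.6% of genes were lower and 19.2% higher (47.1% of all calls were higher, and 57.7% under quantile normalization). The count of 13 was 8 without Cdh1+/F;Trps1F/F library b and 7 without Cdh1F/F;Trps1F/F library 2.

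Between day 14 and day 28, 14 of 24 replication-dependent members rose and 0 fell (median 0.81) in Cdh1+/F;Trps1F/F organoids and 1 variant rose and 5 fell, against 20.7% of genes higher and 20.5% lower. Of the 24, 17 had counts of 10 in every library of both days, and 11 of those rose, with a median of 0.78. Another 6 (Hist1h2ac, Hist1h3e, Hist1h3f, Hist1h4a, Hist1h4j and Hist1h4k) had such counts in every day 28 library but not in every day 14 library, which favours a rise. Hist1h2bc went from 934 and 961 to 1437 and 1843 (0.78, adjusted p = 0.000278), Hist1h1c from 6588 and 5478 to 8939 and 8963 (0.58, adjusted p = 0.00608) and Hist1h1e from 30.1 and 36.1 to 88.6 and 88.1 (1.40, adjusted p = 0.006). H2afx fell from 562 and 433 to 309 and 299 (-0.70, adjusted p = 0.00135). No groups of these 4 genes overlapped, but each held 2 libraries and no share over all genes is given. In Cdh1F/F;Trps1+/+ organoids 3 histone genes were called, H1f0 (0.36), H2afz (0.33) and Hist2h2bb (0.60), all higher, against 11.3% of genes higher and 14.9% lower. In Cdh1F/F;Trps1F/F organoids H2afz (0.47, adjusted p = 0.00281), H2afy2 (0.40), H3f3a (0.35) and Hist1h2bc (0.43) were higher and H2afj (-0.50) lower, against 15% and 20.8%. The count of 20 in Cdh1+/F;Trps1F/F organoids was 10 without day 14 library a and 9 without day 28 library b. The 3 calls in Cdh1F/F;Trps1+/+ became 0 without day 14 library a or day 28 library b and 1 without day 14 library b, and the 5 in Cdh1F/F;Trps1F/F became 1 without day 14 library 1 or day 28 library 2 and 2 without day 14 library 2. In the test of whether the day effect itself differed between Cdh1F/F;Trps1F/F and Cdh1F/F;Trps1+/+ organoids limma called 0 histone genes, 5 had an unadjusted p under 0.05, and 8.37% of all genes were called higher and 9.88% lower. The day effect of Cdh1+/F;Trps1F/F organoids was not tested against the others.

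**Figure D4:**
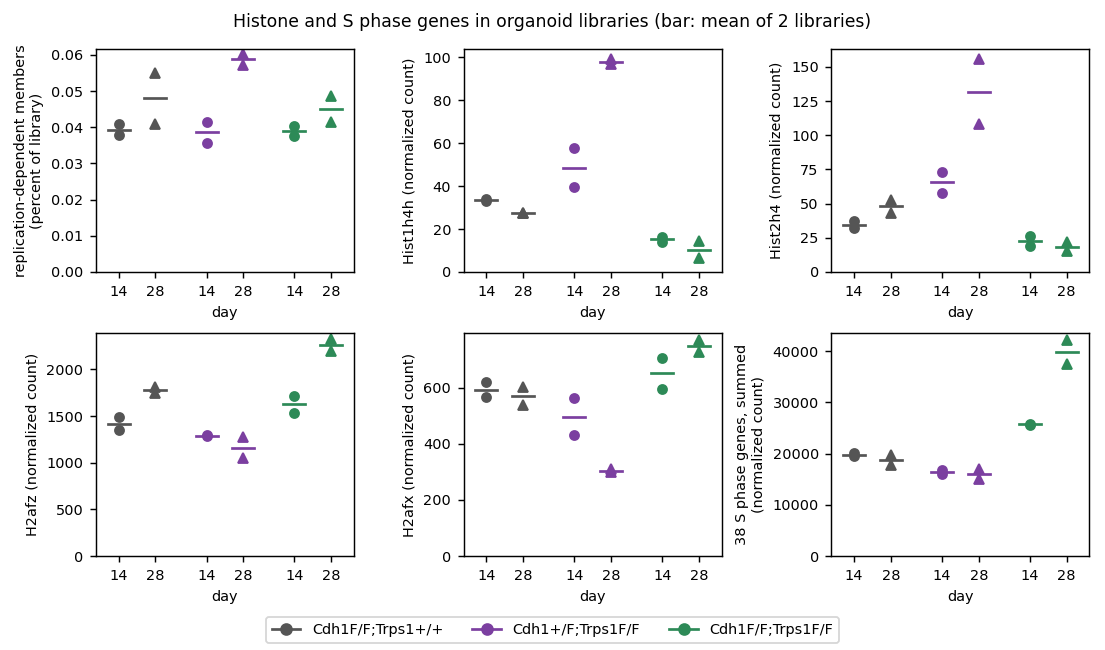
Values of each organoid library at day 14 (circles) and day 28 (triangles) in the 3 genotypes, with a bar at the mean of 2 libraries: the percent of the library in replication-dependent genes, the normalized counts of Hist1h4h, Hist2h4, H2afz and H2afx, and the summed count of 38 S phase genes. The percent covers all replication-dependent symbols, also those below the rule, although the axis names members. Hist1h4h stood at 99.1 and 97.0 in Cdh1+/F;Trps1F/F organoids at day 28, where the S phase sum was 15116 and 16990, and at 14.5 and 6.31 in Cdh1F/F;Trps1F/F organoids, where it was 42102 and 37428.

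S phase genes were counted in the same contrasts. At day 28, 36 of 38 were higher in Cdh1F/F;Trps1F/F than in Cdh1F/F;Trps1+/+ organoids and 0 lower (median 1.11), with cyclin Ccna2 (2.36), Rrm2 (1.99), Mcm4 (1.17) and Rrm1 (1.13) named. In Cdh1+/F;Trps1F/F organoids 18 were lower and 1 higher (median -0.37), with Tk1 (-1.47), Fen1 (-1.01), Mcm5 (-0.83) and Mcm7 (-0.53). Of the histone chaperones 15 were higher and 2 lower in Cdh1F/F;Trps1F/F, among them Asf1b (1.48) and Chaf1b (1.45), and 4 were higher and 6 lower in Cdh1+/F;Trps1F/F organoids.

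Markers of other cell types moved with the genotypes as well. At day 28 the summed fibroblast markers were 34628 to 55248 in Cdh1F/F;Trps1+/+, 388833 to 463917 in Cdh1+/F;Trps1F/F and 16416 to 16888 in Cdh1F/F;Trps1F/F organoids. All 12 fibroblast and all 12 skeletal muscle markers were higher in Cdh1+/F;Trps1F/F, and 11 and 12 were lower in Cdh1F/F;Trps1F/F. The skeletal muscle sums were 6450 to 9512, 51683 to 67850 and 1047 to 1603 in the same order, and the adipocyte sums 5299 to 9629, 53138 to 55060 and 1603 to 2415, with Cfd and Retn at 0 in the first and last genotype. Luminal epithelial sums ran the other way, at 62703 to 67029, 40408 to 45306 and 101544 to 102358. Between day 14 and day 28 of the Cdh1+/F;Trps1F/F organoids, 10 of 12 muscle markers rose (summed counts 19102 to 20971, then 51683 to 67850) and 8 of 9 adipocyte markers rose (28791 to 30553, then 53138 to 55060). Over the same days all 10 macrophage markers tested fell (26210 to 26843, then 6560 to 7977), 7 of 12 endothelial markers fell and 1 rose, 8 of 13 luminal markers fell (73152 to 76629, then 40408 to 45306) and 3 of 12 fibroblast markers fell (696936 to 791186, then 388833 to 463917). Of 38 S phase genes 3 rose and 10 fell over these days. No fibroblast or muscle marker was at 0, and the part of these cells and genes in the histone differences, between genotypes or days, was not tested.

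No histone gene was called between tumors with and without floxed Trps1. Of 19 histone genes coding for protein and tested over mice, limma called 0, as it did for 0% of 15260 genes in all, and 1 had an unadjusted p under 0.05 against 790 of all genes. That gene was the H4 gene Hist2h4, at 15.95, 11.6 and 15.2 counts in the Trps1+/+ tumors and 7.86 to 65.2 (median 32.0) in the 8 Trps1F/F tumors (1.09, SE 0.483, adjusted p = 0.802). The tumors overlapped, although the means of the mice did not. H2afx lay between 241 and 616 (median 375) in Trps1F/F and at 487, 798 and 562 in Trps1+/+ tumors (-0.56, SE 0.292, adjusted p = 0.802), and H3f3b between 6678 and 35028 (median 13540) against 8274, 10663 and 12684 (0.31, adjusted p = 0.823). Hist1h1c lay between 169 and 1000 (median 415) against 378, 716 and 573 (-0.10, adjusted p = 0.958). Both groups overlapped widely in these 3 genes. The highest H3f3b count and the lowest sum of replication-dependent counts (414.6) were in the same tumor, 1 of 3 from a single mouse.

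By labelled subgroup, subgroup one (4 tumors of 3 mice) had lower H2afx than the Trps1+/+ tumors, with 264, 373, 241 and 308 counts against 487, 798 and 562 and no overlap (-1.01, SE 0.25, adjusted p = 0.0304). If the subgroups were defined from these expression values, the subgroup tests are not independent of them and their p-values may not hold. H2afx was the single call among 20 histone genes, against 6.7% of 15707 genes lower and 8.95% higher, and it was lost without any of 4 of the 9 mice taken out in turn. H1fx was also below every Trps1+/+ tumor there (20.7 to 29.5 against 61.2 to 91.2) but was not called (-1.46, SE 0.506, adjusted p = 0.0873). Luminal markers summed to 69745 to 118939 in subgroup one and 11719 to 30854 in Trps1+/+ tumors, and 3 of 38 S phase genes were lower, whose part in the H2afx difference was not tested. In the other subgroups limma called 0 histone genes, against 0% and 0.00637% of all genes, and 2 and 1 had an unadjusted p under 0.05. These included Hist2h4 in the first of them (65.2 and 42.2 counts, 1.82, SE 0.468, adjusted p = 0.21) and Hist1h1c in the second (169 and 293 counts, -1.27, adjusted p = 0.767). Each of these subgroups held 2 tumors, and 1 mouse gave tumors to both subgroup one and the last subgroup.

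**Figure D5:**
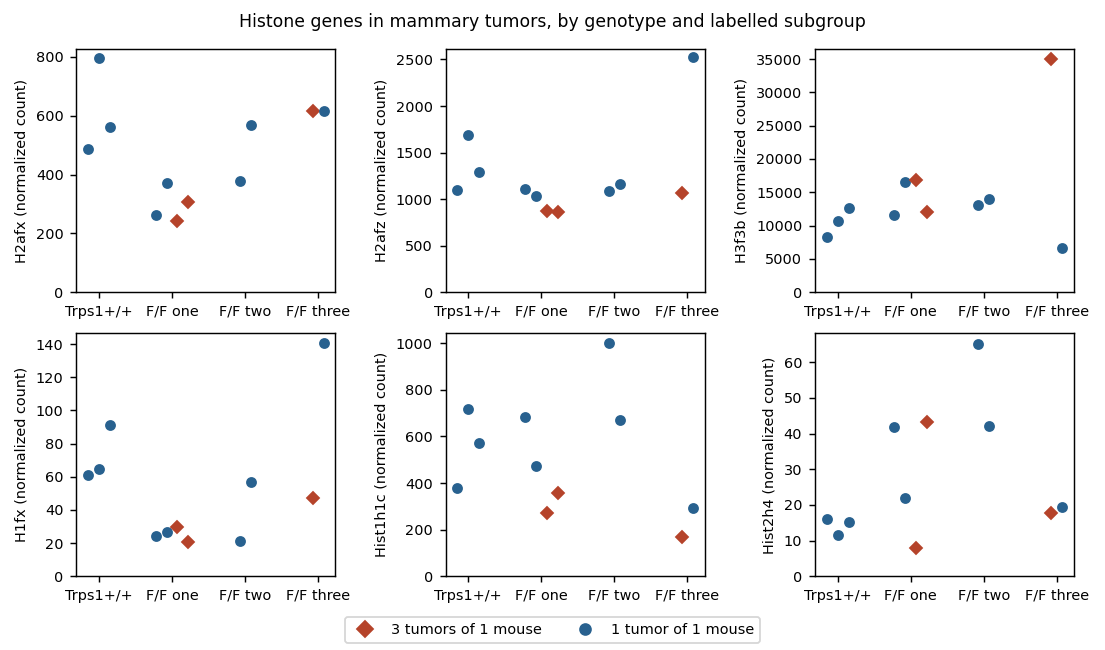
Normalized counts of 6 histone genes in each tumor, by genotype and labelled subgroup; diamonds are the 3 tumors of 1 mouse and circles are tumors of the other mice. H2afx is at 241 to 373 in subgroup one and at 487 to 798 in Trps1+/+ tumors, and H3f3b reaches 35028 in 1 tumor of the last subgroup.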

How the data were processed

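RNA was extracted with AllPrep columns, kept at an RNA integrity above 8 and made into libraries with a TruSeq RNA kit, per the labels' protocols; whether counting used strand is not stated. The submitters' processing notes name TopHat, HTSeq and GRCm38, with no versions. The deposited tables hold log2 values of normalized counts plus 1, per the file headers, 1 table per experiment. Values were turned back to normalized counts, which were whole multiples of 1 read in 100% of cases (within 0.01 reads or a share of 1e-05), so 3 reads give each library's floor.

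In each table, limma 3.58.1 (R 4.3.3, lmFit and eBayes with trend) was fitted to the deposited log2 values of every gene with a count of 10 in as many libraries as the smallest group has, with Benjamini-Hochberg adjustment over all of them and a threshold of 0.05; every adjusted p is limma's. Organoid contrasts came from 1 fit of 6 groups, and tumors of 1 mouse were averaged (within a subgroup for subgroups), so that 9 mice entered the genotype fit. Left out were 14 symbols turned into dates in each table and 1 nameless entry in the guide and in the organoid table (at most 5.16e-06% and 1.31e-05% of a library). Of 12 organoid columns 8 share a header with another column; their libraries are called a and b, which carries no pairing. The members and gene lists were chosen with earlier results of these data known. Named were every variant, the 8 replication-dependent members with the smallest p, a fixed set of others and 4 genes of each list. Alternatives were a pseudocount of 5, quantile or median scaling, no filter, each library left out, fits of the compared groups only and a replicate block. Replicate numbers did not pair the samples: deviations of same-numbered libraries correlated at -0.19, 0.05 and -0.18 (TSA) and -0.22 (guide). The procedure was tested on simulated data. Stem-loops came from GENCODE M21 and promoters from RefSeq.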

Additional observations from a re-analysis of the deposited data

Results flagged for a closer look

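In tumors, 2 of the 21 histone genes tested had a mouse that stood apart from the other Trps1F/F mice; chance alone marks about 1 in 20 groups. H2afy was highest at 11.84 on the log2 scale in 1 of 6 mice, with the next at 11.28, so that the gap was 0.694 of the range against a critical value of 0.625. H2afz was highest at 11.30 in another mouse, with the next at 10.18 (gap 0.78 of the range).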

How the results depend on the processing

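Depth limits the low members: at 3 reads a library's floor is 1.55 to 4.51 normalized counts, and several replication-dependent genes lie near it in the lower group. Settings that leave libraries out tested the same genes as the full fit; a group left with 1 library is assumed to vary like the others. With each library (tumors: mouse) left out in turn, histone genes called numbered 20 to 22 for TSA, 8 to 11 for the guide, 1 to 4 and 6 to 8 for Cdh1F/F;Trps1F/F against Cdh1F/F;Trps1+/+ at days 14 and 28, 0 to 5 and 10 to 19 for Cdh1+/F;Trps1F/F against Cdh1F/F;Trps1+/+, and 7 to 11 and 16 to 20 between the genotypes floxed for Trps1. They numbered 0 to 4, 1 to 7 and 9 to 15 for day 28 against 14 in Cdh1F/F;Trps1+/+, Cdh1F/F;Trps1F/F and Cdh1+/F;Trps1F/F, 0 to 2 for the difference of day effects and 0 to 1 for tumor subgroup one. Without the filter the counts fell to 3 (Cdh1F/F;Trps1F/F, day 14), 1 (Cdh1+/F;Trps1F/F, day 14) and 3 (day effect in Cdh1F/F;Trps1F/F). The same setting lost 5 calls for Cdh1+/F;Trps1F/F against Cdh1F/F;Trps1+/+ at day 28 and 6 between the genotypes floxed for Trps1 at day 28. It also lost 5 for the day effect in Cdh1+/F;Trps1F/F. In fits of the compared groups alone they were 6 (Cdh1F/F;Trps1F/F, day 28), 1 (day effect in Cdh1F/F;Trps1+/+) and 3 (day effect in Cdh1F/F;Trps1F/F). For Cdh1+/F;Trps1F/F against Cdh1F/F;Trps1+/+ at day 28, quantile normalization lost 7 calls and gained 2. Under quantile normalization 13 were called between the genotypes floxed for Trps1 at day 28 and 2 in subgroup one. The same setting turned Hist1h1d (-0.19) and Hist1h4j (-0.10) under TSA, and Hist1h3d (0.06), Hist2h3c2 (0.02) and H1fx (0.08) between the genotypes floxed for Trps1 at day 28, and it shifted the median of all genes there by 0.131 and in Cdh1+/F;Trps1F/F against Cdh1F/F;Trps1+/+ by -0.123; the cause was not tested. With a replicate block 21 (TSA), 10 (guide; 11 with crossed numbers) and 4 (day effect in Cdh1F/F;Trps1F/F, fit of its groups alone) histone genes were called. Over single genes, 4450 values kept their side of the threshold, 267 lost a call, 55 gained one and 5 turned direction. A turn was counted only for a gene called in at least 1 of the 2 settings compared. The 4450 may therefore hold genes called in neither setting that changed sign.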

Other observations

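Genes of histone mRNA transcription and processing were counted between organoid genotypes at day 28. Of 14 tested, 5 were higher and 3 lower in Cdh1F/F;Trps1F/F than in Cdh1F/F;Trps1+/+ organoids (median 0.20), where 20.1% of all genes were higher and 23.5% lower, with Eri1 (0.58), an exonuclease of histone mRNA, Casp8ap2 (0.54), Slbp (0.49) and Cpsf2 (0.42) named. In Cdh1+/F;Trps1F/F organoids 1 was higher and 3 lower (median -0.09), against 28.7% and 24.9% of all genes, with Upf1 (-0.58), Cstf2 (-0.57), Sympk (-0.27) and Cpsf3 (0.23). H3f3aos, the antisense RNA, had 44.4 to 93.4 counts in the 6 day 28 organoid libraries and was not called between genotypes at that day.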
